A study of Mus musculus with 6 samples.

Results

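The genes described here are 10 transcripts of the MHC class I pathway: the nonclassical class I chains H2-M2 and H2-M3, the classical chains H2-K1 and H2-D1, the light chain B2m, the peptide transporter subunits Tap1 and Tap2, the loading factor Tapbp, the immunoproteasome subunit Psmb8 and the class I transactivator Nlrc5. They were chosen by gene name from the 46078 gene rows of the count table, with their counts in the 6 libraries already known, and H2-M2 was singled out for its difference from the classical chains. The contrast between the groups was therefore used in choosing them, so their values are a description, and test calls on them are counted once below without supporting anything. All 10 members were present in the table and all 10 passed the filter on low counts, H2-M2 only through its counts in the Cre libraries.

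The RNA was polyA-captured from sorted lung alveolar macrophages, which patrol the air side of the lung, of untreated mice. Car4fl/fl-CD11cCre mice (3 mice, called Cre) carried loxP-flanked alleles of Car4, the gene of membrane-anchored carbonic anhydrase 4, plus a recombinase, Cre, under CD11c, an integrin encoded by Itgax. Car4fl/fl mice (3 mice, called control) carried the same floxed alleles without the recombinase. The question is how loss of Car4 in cells that express CD11c relates to their transcripts. CD11c is also found on dendritic cells, and the groups include no mice with the recombinase and wild-type Car4, so recombinase and deletion cannot be told apart. The labels give no age, sex or strain.

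MHC class I molecules display peptides from inside the cell to CD8 T cells. The immunoproteasome cuts proteins into peptides, TAP carries them into the endoplasmic reticulum, tapasin and chaperones load them onto a heavy chain paired with beta-2 microglobulin, and the complex then moves to the cell surface. Classical chains are made by nearly all nucleated cells, while nonclassical chains are more restricted and some present unusual ligands, such as the N-formylated peptides bound by H2-M3. Nlrc5 is the transactivator that, with the RFX and NF-Y complexes, acts on an array of short elements (the S, X and Y boxes) in the promoters of classical class I genes and B2m.

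Promoter windows are shown for the 4 heavy chains and B2m because H2-M2 stood apart from the other 4 in these libraries. Each window runs from 250 bases before to 50 bases after the RefSeq transcription start (GRCm38.p6), 5′ to 3′ on the gene's strand, and 8 of the 10 members had an entry. Capitals mark matches, on either strand, to the Y box CCAAT, the X2 box core TGACG, the class I kappaB core GGGATTCCC, the interferon response element core read as GAAANNGAA or GAANNGAAA, and the GAS element TTCNNNGAA. GAANNGAAA was added after the windows had been seen. The windows lie at chr17:37483505-37483804 on the minus strand for H2-M2, chr17:34000298-34000597 on the minus strand for H2-K1, chr17:35262844-35263143 on the plus strand for H2-D1, chr17:37269984-37270283 on the plus strand for H2-M3 and chr2:122147437-122147736 on the plus strand for B2m.
H2-M2: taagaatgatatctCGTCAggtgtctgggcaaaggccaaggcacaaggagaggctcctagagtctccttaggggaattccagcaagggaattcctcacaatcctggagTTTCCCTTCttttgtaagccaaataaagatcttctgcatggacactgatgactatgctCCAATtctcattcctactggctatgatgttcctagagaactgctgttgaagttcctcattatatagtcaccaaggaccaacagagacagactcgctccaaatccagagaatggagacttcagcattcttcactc
H2-K1: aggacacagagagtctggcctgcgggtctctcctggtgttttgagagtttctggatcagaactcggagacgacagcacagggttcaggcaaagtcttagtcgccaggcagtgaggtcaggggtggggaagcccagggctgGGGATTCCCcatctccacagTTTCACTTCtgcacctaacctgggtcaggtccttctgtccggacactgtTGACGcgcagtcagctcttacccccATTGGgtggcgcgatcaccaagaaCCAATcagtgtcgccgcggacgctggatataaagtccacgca
H2-D1: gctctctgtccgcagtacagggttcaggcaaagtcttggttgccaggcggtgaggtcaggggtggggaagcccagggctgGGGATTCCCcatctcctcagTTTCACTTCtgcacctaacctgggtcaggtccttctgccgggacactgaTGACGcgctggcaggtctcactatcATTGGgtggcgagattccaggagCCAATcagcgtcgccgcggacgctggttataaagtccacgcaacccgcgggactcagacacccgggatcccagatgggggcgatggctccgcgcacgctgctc
H2-M3: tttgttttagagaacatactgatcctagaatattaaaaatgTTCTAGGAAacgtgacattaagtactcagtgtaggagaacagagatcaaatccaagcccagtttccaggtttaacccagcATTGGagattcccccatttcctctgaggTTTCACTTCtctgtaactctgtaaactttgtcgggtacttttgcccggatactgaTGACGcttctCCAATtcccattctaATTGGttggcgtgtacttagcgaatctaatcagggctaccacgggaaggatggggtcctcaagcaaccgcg
B2m: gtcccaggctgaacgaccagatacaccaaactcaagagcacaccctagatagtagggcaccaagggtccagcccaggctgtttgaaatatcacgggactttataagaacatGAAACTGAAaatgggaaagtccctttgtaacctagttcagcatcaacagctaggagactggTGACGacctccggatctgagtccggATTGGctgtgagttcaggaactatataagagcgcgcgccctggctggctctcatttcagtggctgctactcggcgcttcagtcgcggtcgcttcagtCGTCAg

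Positions are counted from 0 at the first transcribed base, and upstream positions are negative. In the H2-K1 window the kappaB core began at -110, the interferon response core at -90, the X2 core at -41 and an inverted Y box (ATTGG) at -16. The H2-D1 window held the same elements in the same order, at -170, -150, -101 and -76, so that the distances between their first bases were 20, 49 and 25 bases in both genes. B2m had its interferon response core at -139, its X2 core at -78 and its inverted Y box at -53, and H2-M3 had an interferon response core at -101, an X2 core at -46 and an inverted Y box at -21. The X2 core was thus followed at a distance of 25 bases by the inverted Y box in H2-K1, H2-D1, H2-M3 and B2m.

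The H2-M2 window held no exact match to such a pair. It had a Y box in the other orientation at -84, an interferon response core at -142, an X2 core on the opposite strand at -236 and no match to the kappaB core. H2-M3, H2-D1 and H2-K1 also held a Y box in that orientation, at -36, -53 and 8. In H2-M3 this box began 10 bases after the start of TGACG and 15 bases before that of ATTGG. At those distances H2-M2 had TGACT and ACTGG, each a single letter away. This near match was read from the windows and was not searched for in other promoters. TGACG followed after 20 bases by ATTGG occurred in 4 of the 8 member windows and in 31 of 32851 promoters of the same length (0.0944%). The exact pair was looked for after the windows had been seen. The single elements are common: among all promoters 37.4% held the Y box, 20.8% the X2 core, 8.56% GAAANNGAA, 7.52% GAANNGAAA, 8.3% the GAS element and 0.353% the kappaB core. Tap1 held a Y box and an X2 core, Tapbp a pair of Y boxes and Psmb8 a GAS element. A match is a run of letters and does not show binding. The H2-K1 and H2-D1 windows were identical at 88.3% of aligned bases, whereas H2-M2 and H2-K1 were identical at 59.6%, close to the 57.8% of B2m and H2-K1, which are not of the same family.

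The libraries held 53824475 to 65443314 counts in genes, and values below are CPM, counts scaled to library size with TMM factors, unless TPM, which also divides by exon length, is named. Car4 had 40.2, 46.9 and 36.3 CPM in Cre libraries 1, 2 and 3, against 499, 385 and 270 CPM in control libraries 1, 2 and 3. The deleted gene was lower in all 3 Cre libraries, at 0.107 of the control mean (log2 fold change -3.23 ± 0.22 SE, edgeR quasi-likelihood test with Benjamini-Hochberg adjustment, adjusted p = 0.0047). The call was lost with robust dispersions (adjusted p = 0.0719) and without control library 2 (adjusted p = 0.0549), and was kept in the other 13 of 15 alternatives, over which the log2 fold change ran from -3.43 to -2.99. Cre library 1 stood apart on the first principal component (47% of the variance), at 0.4, where Cre libraries 2 and 3 were at 39.8 and 39.4 and the control libraries between -29.7 and -22.5. The alveolar macrophage markers, led by Chil3, Itgax and Ear2, summed to 27400 to 41000 CPM in Cre libraries and 21800 to 25400 CPM in control libraries, and each of the 12 was detected. Chil3 carried most of that difference. The other 11, of which Itgax was the most abundant, summed to 8090 to 8440 CPM in Cre and 7410 to 7910 CPM in control libraries. These sums did not overlap either, but Itgax weighs heavily in them. They do not show the markers as a set to be higher. The median log2 fold change of the 12 was 0.05, with 8 positive and 4 negative. Siglecf had 591, 464 and 585 CPM in Cre libraries, against 751, 663 and 708 CPM in control libraries. Itgax had 2384, 2577 and 2349 CPM in Cre libraries, against 1869, 1724 and 1483 CPM in control libraries. Marco, also higher without overlap, had 468, 504.5 and 393 CPM in Cre libraries, against 311, 296 and 280 CPM in control libraries.

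H2-M2 (ENSMUSG00000016283, GRCm38 chr17:37480851-37483552, minus strand, 4 exon blocks), a nonclassical chain of the M region, had 2.28, 27.7 and 50.3 CPM in Cre libraries 1, 2 and 3, against 0.299, 0.233 and 0.0879 CPM in control libraries 1, 2 and 3. These values rest on 135, 1790 and 2711 counts in Cre libraries and on 18, 14 and 5 counts in control libraries. Every Cre library lay above every control library, but Cre library 1 was far below the other two. Counting error alone gives 95% exact Poisson intervals of 1.91 to 2.70 CPM for Cre library 1 and 0.177 to 0.472 CPM for control library 1. These intervals do not meet, but they leave out the spread between mice and say nothing of the groups. The group means were 26.78 ± 24.04 CPM in Cre and 0.206 ± 0.108 CPM in control libraries (SD, n = 3 each), a ratio of 130, and the single Cre libraries stood 11, 134 and 244 times above the control mean.

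The log2 fold change of H2-M2 was 6.99 ± 1.21 (SE), the sixth largest of all 15147 tested genes. The 5 above it were Saa3 (12.01), an acute phase protein, Ighg1 (11.02), Ighg2b (10.17) and Ighv2-3 (8.95), immunoglobulin heavy chain segments, and Ccl24 (7.65), a chemokine. Saa3 and Ighv2-3 had 0 counts in every control library, and Ighg2b had 3, 2 and 1 in control libraries 1, 2 and 3. Ighg1 had 1 count in control library 1 and 0 in the others. Ccl24 had 0.777, 1.04 and 40.4 CPM in Cre libraries 1, 2 and 3. With so few control counts the sizes of these fold changes, and the rank of H2-M2, are uncertain. Without Cre library 1 the log2 fold change of H2-M2 was 7.53. Car4 did not share the order of H2-M2 among the Cre libraries, since its lowest value was in Cre library 3, where H2-M2 was highest. Its neighbour H2-M3 did not share it either.

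**Figure D1:**
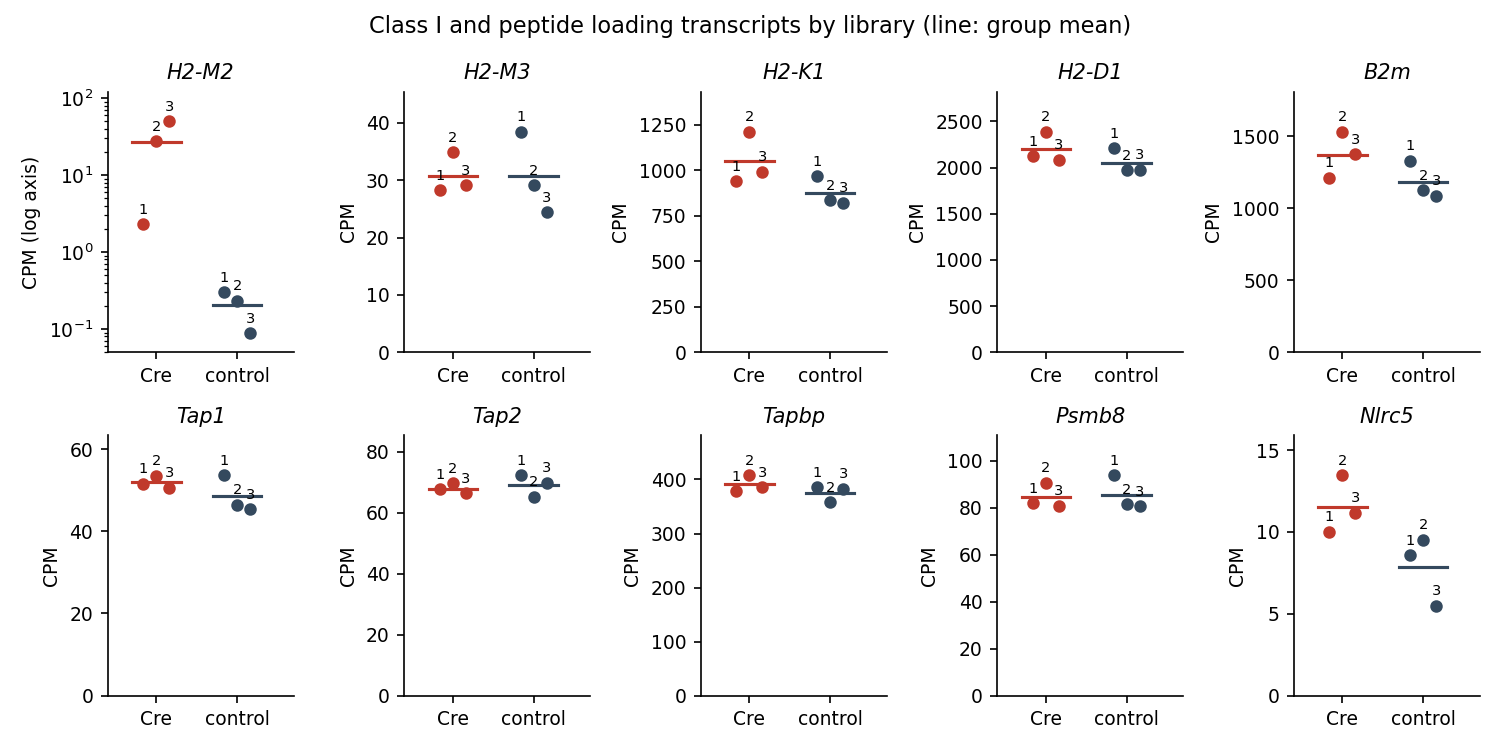
Each panel gives 1 member, with CPM on the vertical axis (log axis for H2-M2, linear from 0 for the others), Cre libraries left of control libraries, points numbered by library and lines at the group means. H2-M2 runs from 2.28 to 50.3 CPM in Cre libraries and from 0.0879 to 0.299 CPM in control libraries, while 8 of the other 9 members overlap between the groups.

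H2-M3 (ENSMUSG00000016206, chr17:37270220-37274484, plus strand), which presents N-formylated peptides, had 28.2, 34.8 and 29.2 CPM in Cre libraries 1, 2 and 3, against 38.5, 29.1 and 24.4 CPM in control libraries 1, 2 and 3. Cre values lay within the range of the control values, with a log2 fold change of 0.00 ± 0.16. In TPM, which divides by all annotated exon bases of a gene, the ratio of H2-M2 to H2-M3 was 0.0749, 0.738 and 1.6 in Cre libraries, against 0.0072, 0.00741 and 0.00334 in control libraries. H2-M2 was thus the less abundant of the pair in 5 libraries and the more abundant in Cre library 3.

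H2-K1 (ENSMUSG00000061232, chr17:33996017-34000347, minus strand), a classical chain, had 941, 1213 and 993 CPM in Cre libraries 1, 2 and 3, against 969, 836 and 823 CPM in control libraries 1, 2 and 3. H2-D1 (ENSMUSG00000073411, chr17:35262730-35267499, plus strand), the other classical chain listed, had 2126, 2389 and 2084 CPM in Cre libraries, against 2213, 1972 and 1978 CPM in control libraries. Cre library 2 was highest for both chains. The groups overlapped because control library 1 stood above Cre library 1 and, for H2-D1, also above Cre library 3. The log2 fold changes were 0.26 ± 0.11 for H2-K1 and 0.10 ± 0.08 for H2-D1 (SE). H2-K1 relative to H2-D1 was 0.442, 0.508 and 0.477 by counts in Cre libraries, against 0.438, 0.424 and 0.416 in control libraries, a difference of 0.16 in log2 units with no overlap. Of the 50-base words in their transcripts, 9.63% for H2-K1 and 12.8% for H2-D1 also occur in other genes, so their counts may hold or lose some reads of related chains.

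Set against the classical chains within each library, which removes any scaling between libraries, H2-M2 had 74.4, 770 and 1640 counts for every 100000 counts of H2-K1 plus H2-D1 in Cre libraries 1, 2 and 3, against 9.39, 8.29 and 3.14 in control libraries 1, 2 and 3. The log2 ratio averaged -7.78 ± 2.32 in Cre and -13.97 ± 0.87 in control libraries (SD, n = 3 each), a difference of 6.18. Of the 50-base words of H2-M2, 1.61% occur in another gene, and its transcript was identical to H2-K1 at 67.8% and to H2-D1 at 66.3% of aligned bases, where H2-K1 and H2-D1 were identical at 90.7%.

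H2-M2 remained a small part of the class I chain RNA. Over 29 class I chain genes, TPM summed to 4186, 4783 and 4278 in Cre libraries, against 4202, 3913 and 3847 in control libraries. The annotated exons span 2938 bases for H2-K1 and 2579 for H2-D1, where their aligned transcripts had 1619 and 2102. For H2-M2 these lengths were 1551 and 1550. TPM of the classical chains may thus be understated, and shares and ratios between genes are approximate. H2-K1 plus H2-D1 made up 89.3, 87.5 and 85.9% of that sum in Cre libraries, against 88.9, 89.3 and 90.2% in control libraries. The share of H2-M2 was 0.115, 1.17 and 2.43% in Cre libraries, against 0.0144, 0.0128 and 0.00488% in control libraries. H2-M3 held 1.52 to 1.58% in Cre and 1.46 to 2.0% in control libraries.

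**Figure D2:**
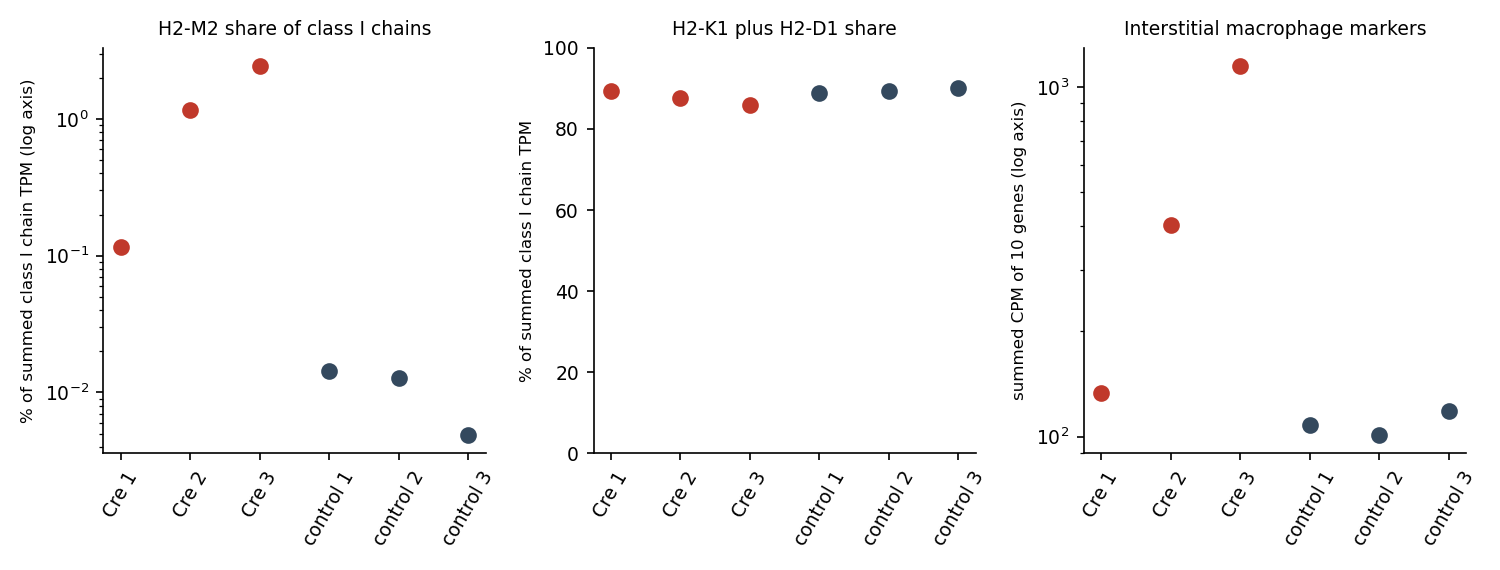
The left and middle panels give the share of summed class I chain TPM (%) taken by H2-M2 (log axis) and by H2-K1 plus H2-D1, and the right panel the summed CPM of 10 interstitial macrophage markers (log axis), with 1 point per library and Cre left of control. H2-M2 goes from 0.115 to 2.43% across the Cre libraries and the marker sum, mostly Mmp12 and Apoe, from 133 to 1150 CPM in the same order, although 3 of the 10 markers have a negative log2 fold change, while H2-K1 plus H2-D1 stay between 85.9 and 90.2% in all 6.

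B2m (ENSMUSG00000060802, chr2:122147686-122153083, plus strand), the light chain of class I molecules, had 1210, 1530 and 1375 CPM in Cre libraries 1, 2 and 3, against 1329, 1125 and 1085 CPM in control libraries 1, 2 and 3. The pattern was that of H2-K1, with Cre library 2 highest, control library 1 above Cre library 1 and a log2 fold change of 0.22 ± 0.11 (SE). B2m amounted to 1.1, 1.16 and 1.2 times the summed class I chain TPM in Cre libraries, against 1.16, 1.11 and 1.09 times in control libraries, and the groups overlapped.

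Tap1 (ENSMUSG00000037321, chr17:34187553-34197225), a subunit of the peptide transporter, had 51.6, 53.5 and 50.6 CPM in Cre libraries 1, 2 and 3, against 53.7, 46.5 and 45.4 CPM in control libraries 1, 2 and 3. Its partner subunit Tap2 (ENSMUSG00000024339, chr17:34203527-34216321) had 67.8, 69.6 and 66.5 CPM in Cre libraries, against 72.4, 65.3 and 69.8 CPM in control libraries. Tapbp (ENSMUSG00000024308, chr17:33915899-33929292), which encodes tapasin, the bridge between transporter and heavy chain, had 378, 408 and 386 CPM in Cre libraries, against 385, 358 and 383 CPM in control libraries. The groups overlapped for all 3, with log2 fold changes of 0.10 ± 0.07 for Tap1, -0.02 ± 0.05 for Tap2 and 0.06 ± 0.06 for Tapbp (SE). In these genes the Cre libraries differed little from one another, with coefficients of variation of 2.33 to 3.94%.

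Psmb8 (ENSMUSG00000024338, chr17:34197721-34201454), the immunoproteasome subunit that takes the place of Psmb5, had 81.7, 90.6 and 80.7 CPM in Cre libraries 1, 2 and 3, against 93.8, 81.3 and 80.7 CPM in control libraries 1, 2 and 3. The groups overlapped (log2 fold change -0.02 ± 0.08). Relative to Psmb5 by counts, Psmb8 stood at 1.8, 1.71 and 1.85 in Cre libraries, against 1.91, 1.91 and 1.97 in control libraries, a log2 difference of -0.11. The 2 other exchanges of this kind involve no member and were tested. Psmb9 over Psmb6 was 0.378, 0.372 and 0.336 in Cre libraries, against 0.35, 0.343 and 0.335 in control libraries, a log2 difference of 0.08 (two-sided exact permutation test, p = 0.3, adjusted over the 2 ratios 0.3). Psmb10 over Psmb7 was 0.91, 1.02 and 0.983 in Cre libraries, against 0.953, 0.908 and 0.929 in control libraries, a log2 difference of 0.06 (exact permutation test, p = 0.3, adjusted 0.3). With 3 libraries against 3 this exact permutation test cannot go below p = 0.1, so neither ratio could have passed 0.05.

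Nlrc5 (ENSMUSG00000074151, chr8:94434356-94527272, plus strand), the class I transactivator, had 10.02, 13.5 and 11.2 CPM in Cre libraries 1, 2 and 3, against 8.595, 9.54 and 5.51 CPM in control libraries 1, 2 and 3. It was the other member whose groups did not overlap, with the Cre libraries above and a log2 fold change of 0.55 ± 0.21 (SE). The gap between the lowest Cre library and the highest control library was small beside the spread of the control libraries, whose coefficient of variation was 26.8%.

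By length-scaled level the members ranked alike in both groups apart from H2-M2. Mean TPM was 5090 in Cre and 4470 in control libraries for B2m, 2730 and 2600 for H2-D1, 1140 and 971 for H2-K1, and 344 and 338 for Tapbp. Next came Psmb8 (79.7 TPM in Cre, 82.2 in control), H2-M3 (68.3 and 69.3), Tap2 (57.5 and 59.7), Tap1 (30.3 and 28.9) and Nlrc5 (4.34 and 3.03). Over the control libraries Psmb8 and H2-M3 overlapped, as did H2-M3 and Tap2, so their order is not beyond the spread. The order between genes also depends on the annotated exon lengths used. H2-M2 averaged 54.9 TPM in Cre and 0.431 TPM in control libraries, and its Cre libraries, at 4.8, 55.9 and 104 TPM, span the levels from Nlrc5 to above Psmb8.

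Of the 10 members, edgeR called 0 at an adjusted p of 0.05 in either direction, where it called 0.0066% of the 15147 tested genes higher in Cre and 0.0066% lower. DESeq2 called 1 member, H2-M2, higher, where it called 2.37% of the 14547 genes it adjusted higher and 1.51% lower, and limma-voom called 0 members. At an unadjusted edgeR p of 0.05, 3 members were higher (H2-M2, H2-K1 and Nlrc5), beside 6.54% of all tested genes, and 0 were lower, beside 6.28%. The groups did not overlap for 2 members, both higher in Cre, beside 8.63% of all tested genes, and for 0 members in the other direction, beside 9.22%. As the members were chosen with this contrast known, nothing is read from these counts. The median log2 fold change of the 10 was 0.10, beside -0.002 over all tested genes, and the 9 members other than H2-M2 ran from -0.02 to 0.55.

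**Figure D3:**
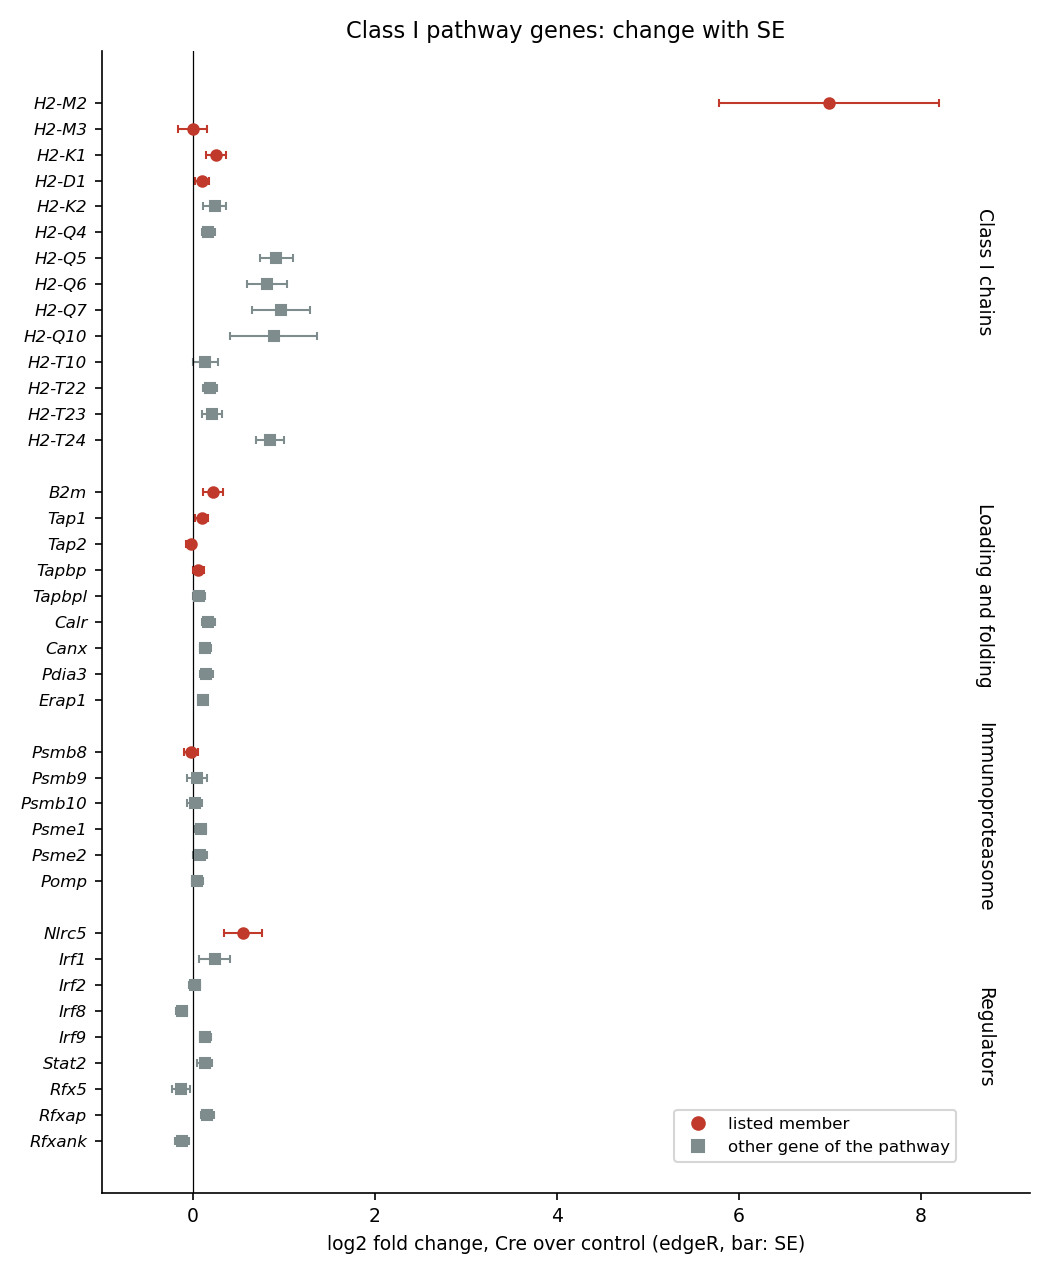
Points give the log2 fold change, Cre over control, with an SE derived from the edgeR test, for the listed members (circles) and for other genes of the pathway (squares), grouped by role. H2-M2 stands at 6.99, and the other genes drawn lie between -0.13 and 0.97.

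The remaining class I chains were taken from lists drawn up by chromosomal region. Among 5 tested Qa region genes all 5 had a positive log2 fold change (median 0.89), edgeR called 0, 3 were higher at an unadjusted edgeR p of 0.05, beside 6.54% of all tested genes, and DESeq2 called 2, H2-Q5 and H2-Q6, beside 2.37% of the genes it adjusted. H2-Q6, of the genes that encode the Qa-2 antigen, had 21.8, 31.6 and 23.9 CPM in Cre libraries 1, 2 and 3, against 19.5, 13.6 and 10.8 CPM in control libraries 1, 2 and 3 (log2 fold change 0.82 ± 0.22 SE, edgeR adjusted p = 0.194, DESeq2 adjusted p = 0.0035). H2-Q5 had 3.65, 5.39 and 4.38 CPM in Cre libraries, against 2.56, 2.48 and 2.08 CPM in control libraries (0.92 ± 0.18, edgeR adjusted p = 0.146, DESeq2 adjusted p = 0.00133). In both genes every Cre library lay above every control library. H2-Q7, also of the Qa-2 genes, had 9.75, 16.5 and 16.7 CPM in Cre libraries, against 10.42, 6.95 and 4.43 CPM in control libraries, and overlapped. The sequences of these 3 genes are near-identical in places, with 32, 36.4 and 26.4% of the 50-base words of H2-Q6, H2-Q5 and H2-Q7 found in other genes, and their single counts are uncertain. H2-Q4, which with H2-Q6 was the most abundant of the region, had 41.8 to 49.4 CPM in Cre and 38.4 to 42.1 CPM in control libraries.

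The T region held 4 tested genes, of which all 4 had a positive log2 fold change (median 0.20). Of these 0 passed edgeR and 2 were higher at its unadjusted p of 0.05, beside 6.54% of all tested genes. DESeq2 called 1, beside 2.37% of the genes it adjusted. That gene, H2-T24, had 14.5, 22.1 and 18.1 CPM in Cre libraries 1, 2 and 3, against 11.02, 9.84 and 9.48 CPM in control libraries 1, 2 and 3. Every Cre library lay above every control library, and unlike H2-M2 the 3 Cre libraries lay close together (log2 fold change 0.85 ± 0.15 SE, edgeR adjusted p = 0.146, DESeq2 adjusted p = 1.74e-05). Its words were shared with other genes at 3.17%. H2-T23, the Qa-1 chain that binds leader peptides of other class I chains, had 174 to 219 CPM in Cre and 153 to 196 CPM in control libraries, and overlapped. H2-T22, a ligand of some gamma delta T cell receptors, had 42.0 to 48.1 CPM in Cre and 37.0 to 43.4 CPM in control libraries.

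Of the 12 M region genes, H2-M2 and H2-M3 alone were expressed enough to be tested. Of the other 10, 8 (H2-M1, H2-M9, H2-M10.1, H2-M10.3, H2-M10.4, H2-M10.5, H2-M10.6 and H2-M11) had 0 counts in all 6 libraries. Class I-like genes outside the MHC gave 10 tested genes, 6 with a positive and 4 with a negative log2 fold change (median 0.06). Of these edgeR called 0, and 1 was higher at its unadjusted p of 0.05, beside 6.54% of all tested genes. DESeq2 called 1 of them, Procr, beside 2.37% of the genes it adjusted. Procr encodes the endothelial protein C receptor and had 5.54, 11.7 and 9.15 CPM in Cre libraries, against 5.31, 5.68 and 3.82 CPM in control libraries (edgeR adjusted p = 0.266, DESeq2 adjusted p = 0.0328). The most abundant, the neonatal Fc receptor Fcgrt (log2 fold change -0.01 ± 0.09) and the lipid-presenting Cd1d1 (0.11 ± 0.12), overlapped between groups.

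The list of peptide loading and endoplasmic reticulum folding genes counts the members B2m, Tap1, Tap2 and Tapbp again. In it 12 of 13 genes had a positive log2 fold change (median 0.10), the exception being Tap2, and 0 passed edgeR or DESeq2. Hspa5, Erap1 and Canx, 3 of the 13 and none of them members, were under an unadjusted edgeR p of 0.05, beside 6.54% of all tested genes. For 5 of the 13 every Cre library lay above every control library, beside 8.63% of all tested genes, namely the chaperones Calr, Canx and Pdia3, the peptide-trimming enzyme Erap1 and the folding sensor Uggt1. Their log2 fold changes were small, at 0.17 ± 0.07, 0.14 ± 0.06, 0.15 ± 0.07, 0.11 ± 0.05 and 0.09 ± 0.05 in that order (SE), with edgeR adjusted p between 0.382 and 0.505. Hspa5, the general chaperone BiP, had the lowest p of the list (0.28 ± 0.11, edgeR adjusted p = 0.349) and overlapped. Calr, Canx, Pdia3 and Uggt1 also serve the folding of other glycoproteins. The most abundant of the list was Calr, at 1443 to 1571 CPM in Cre and 1234 to 1440 CPM in control libraries.

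The immunoproteasome and PA28 list counts the member Psmb8 again. It had 5 of 6 genes with a positive log2 fold change (median 0.05), the exception being Psmb8. Of the list 0 passed any of edgeR, its unadjusted p of 0.05 or DESeq2, and all 6 overlapped between groups. Psme1 and Psme2, the PA28 activator subunits, stood at 0.09 ± 0.06 and 0.08 ± 0.08, and the assembly factor Pomp at 0.05 ± 0.06. The 14 tested subunits of the constitutive 20S proteasome ran from -0.05 to 0.10 (median -0.01), again with 0 past either test or an unadjusted edgeR p of 0.05 and every gene overlapping. Its most abundant subunits, Psma1 and Psmb4, stood at 0.02 ± 0.07 and -0.01 ± 0.07.

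Among 25 regulators of class I transcription, 19 had a positive and 6 a negative log2 fold change (median 0.05), and 0 passed edgeR or DESeq2. Nlrc5, already counted as a member, and Rfxap, 2 of the 25, were higher at an unadjusted edgeR p of 0.05, beside 6.54% of all tested genes. Rfxap, a subunit of the RFX complex that binds the X box, had 14.1, 14.8 and 13.9 CPM in Cre libraries, against 12.6, 12.9 and 12.5 CPM in control libraries (0.16 ± 0.07, edgeR adjusted p = 0.382). Irf9, the DNA-binding subunit of the type I interferon response complex, had 29.4, 30.5 and 31.6 CPM in Cre libraries, against 26.4, 27.5 and 29.4 CPM in control libraries (0.14 ± 0.06, adjusted p = 0.413). Irf1 (0.24 ± 0.17), an interferon-induced transcription factor, overlapped between groups, as did Nfkb1 (-0.03 ± 0.06). Jak1, the most abundant of the list, did not overlap but stood at 0.05 ± 0.05. Of 24 tested interferon-stimulated genes 23 had a positive log2 fold change (median 0.27), 12 were higher at an unadjusted edgeR p of 0.05, beside 6.54% of all tested genes, and edgeR called 0. DESeq2 called 4 higher, Oas2, Oas3, Oasl2 and Slfn5, beside 2.37% of the genes it adjusted. Oasl2, with the lowest p of them, had 2.06, 2.99 and 2.27 CPM in Cre libraries, against 0.962, 1.05 and 1.13 CPM in control libraries (1.22 ± 0.20, edgeR adjusted p = 0.146, DESeq2 adjusted p = 0.000416). The most abundant, Parp14 and Gbp7, stood at 0.14 ± 0.06 and 0.01 ± 0.09.

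Class II presentation genes, several of which lie in the same chromosomal complex, had mostly negative log2 fold changes. Of 11 tested, 10 had a negative log2 fold change (median -0.76), 8 were lower at an unadjusted edgeR p of 0.05, beside 6.28% of all tested genes, edgeR called 0, and DESeq2 called 2, Cd74 and H2-DMa, beside 1.51% of the genes it adjusted. Cd74, the invariant chain, had 105, 101 and 190 CPM in Cre libraries 1, 2 and 3, against 1296, 776 and 153 CPM in control libraries 1, 2 and 3, so control library 3 lay among the Cre libraries. H2-DMa, which edits the peptides of class II, had 261, 232 and 256 CPM in Cre libraries, against 366, 300 and 292 CPM in control libraries, with no overlap (-0.35 ± 0.09, edgeR adjusted p = 0.191, DESeq2 adjusted p = 0.0138). Ciita, the class II transactivator, stood at -2.18 ± 0.58 (edgeR adjusted p = 0.19, DESeq2 adjusted p = 0.069) with the same high control libraries 1 and 2. Ctss, the protease cathepsin S and the most abundant of the list, stood at -0.03 ± 0.09.

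Along chromosome 17, from Tapbp to H2-M2, 136 genes were tested, 62 with a positive and 74 with a negative log2 fold change (median -0.02). H2-M2 was the highest of them, followed by the complement gene C2 (3.20) and the butyrophilin-like gene Btnl4 (1.45). The lowest were the class II genes H2-Aa (-2.33), H2-Ab1 (-2.32) and H2-Eb1 (-1.75). Within 250000 bases of H2-M2 lay 35 genes, mostly olfactory receptors, of which 19 had 0 counts in every library and 3 were tested. Besides H2-M3 these were Olfr99 (log2 fold change -0.40 ± 0.28) and Olfr111, which had 0.203, 0.341 and 0.724 CPM in Cre libraries, against 0.216, 0.0997 and 0.106 CPM in control libraries.

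**Figure D4:**
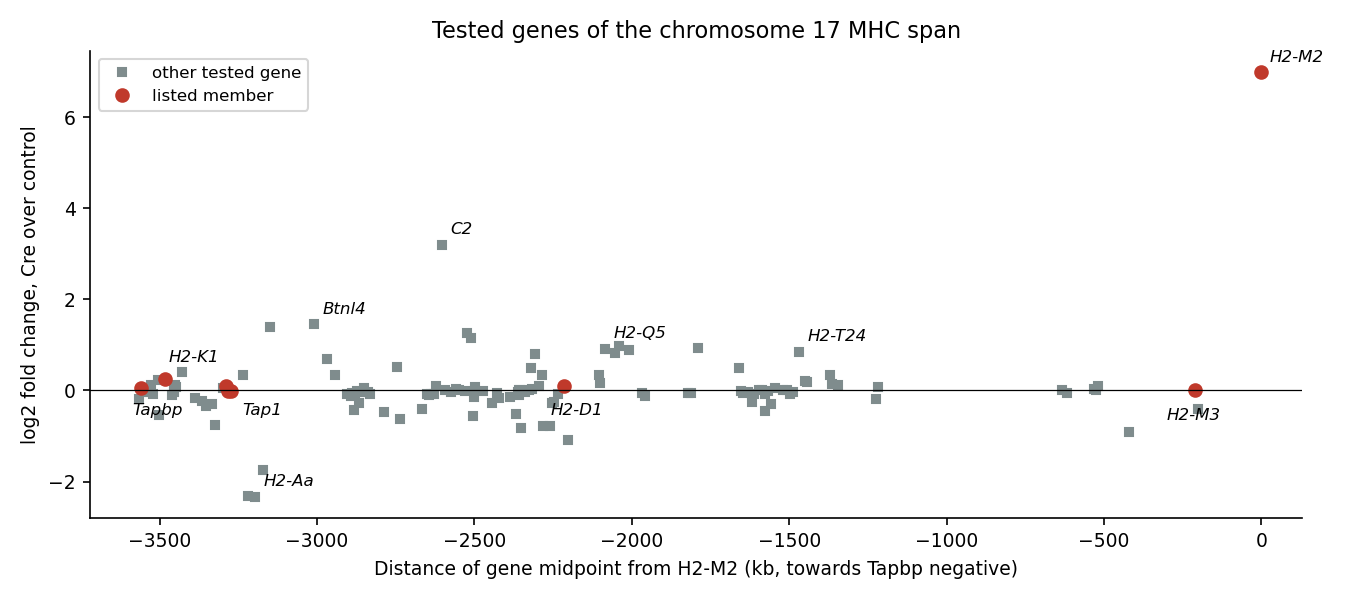
Each point is 1 of the 136 genes tested between Tapbp and H2-M2, with the distance of its midpoint from that of H2-M2 in kb on the horizontal axis and its log2 fold change, Cre over control, on the vertical axis. H2-M2 stands at 6.99 at the right end with H2-M3 at 0.00 as its nearest labelled neighbour.

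Across the 6 libraries the classical chains and B2m varied together, with Pearson correlations of log2 CPM of 0.95 between H2-K1 and H2-D1 and 0.97 between H2-K1 and B2m. H2-M2 correlated with Nlrc5 at 0.82, with B2m at 0.81, with H2-K1 at 0.79, with Tapbp at 0.59, with H2-D1 and Tap1 at 0.57, with H2-M3 at 0.24, with Psmb8 at 0.06 and with Tap2 at -0.23. The genes most like H2-M2, of 11617 compared, were Sdc4 (0.9956), a heparan sulfate proteoglycan, Igf2r (0.9955), the mannose 6-phosphate receptor, Esyt2 (0.9954), a membrane contact protein, Ighg2b (0.9928), an IgG2b constant region, and Cpq (0.9922), a carboxypeptidase. Igf2r had 3.99, 21.1 and 23.9 CPM in Cre libraries 1, 2 and 3, against 1.68, 1.496 and 1.14 CPM in control libraries 1, 2 and 3, the same order of Cre libraries as H2-M2. Those most like H2-K1 were H2-Q4 (0.9973), Pitrm1 (0.9967), Polr2m (0.9946), Glipr1 (0.9928) and Mpeg1 (0.9919). With H2-M2 and H2-K1 themselves correlated at 0.79, no gene could be this close to both. That the 2 lists had no gene in common was thus fixed in advance and adds nothing. These correlations are over 6 libraries in 2 groups and describe likeness of pattern only.

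Some markers of other cells followed the order of H2-M2 in the Cre libraries, and others of the same lists did not. The 10 interstitial macrophage markers, led by Apoe, Mmp12 and C1qb, summed to 133, 403 and 1150 CPM in Cre libraries 1, 2 and 3, against 108, 101 and 118 CPM in control libraries 1, 2 and 3, and 1 of the 10 stayed below 1 CPM in every library. Mmp12 and Apoe made up most of that sum, and the other 8 summed to 11.6, 41.3 and 77.2 CPM in Cre libraries, against 7.07, 9.06 and 6.58 CPM in control libraries. Of the 10 markers 7 had a positive and 3 a negative log2 fold change. Cd163, a scavenger receptor, had 0.422, 0.201 and 0.297 CPM in Cre libraries, against 0.714, 1.296 and 0.651 CPM in control libraries, below all control libraries, while Folr2 (-0.52 ± 0.46) and Lyve1 (-0.23 ± 0.46) overlapped, and Cx3cr1 was highest in Cre library 2. The complement gene C1qa had 1.88, 12.4 and 18.2 CPM in Cre libraries, against 0.680, 1.01 and 0.721 CPM in control libraries. The 12 dendritic cell markers summed to 17.6, 27.0 and 40.0 CPM in Cre libraries, against 21.7, 21.3 and 19.0 CPM in control libraries, and 6 of the 12 stayed below 1 CPM in every library. Among them Ccl17, a chemokine, had 0.946, 12.6 and 16.4 CPM in Cre libraries, against 0.614, 0.582 and 1.601 CPM in control libraries. Without Ccl17 the dendritic cell sum was 16.7, 14.4 and 23.6 CPM in Cre libraries, against 21.1, 20.7 and 17.4 CPM in control libraries, and no longer had the order of H2-M2, and Clec9a had 2.32, 2.88 and 3.42 CPM in Cre libraries, against 5.63, 5.92 and 3.62 CPM in control libraries.

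The 6 B cell markers summed to 12.0, 20.4 and 43.2 CPM in Cre libraries 1, 2 and 3, against 13, 14 and 12.7 CPM in control libraries 1, 2 and 3, led by Jchain, and the other 5 summed to 9.28, 12.1 and 15.7 CPM in Cre libraries, overlapping the control libraries. The part of these cells in the H2-M2 values was not tested, and in bulk RNA fewer cells of a type and less RNA per cell cannot be told apart. T and NK cell markers summed to 2.89 to 3.75 CPM in Cre and 2.08 to 3.10 CPM in control libraries, with 8 of 9 below 1 CPM in every library. Neutrophil markers summed to 13.7 to 26.6 CPM in Cre and 12.2 to 14.0 CPM in control libraries, with Ly6g at 0 in all 6. Epithelial markers summed to 81.1 to 155 CPM in Cre and 131 to 233 CPM in control libraries, a difference carried by Epcam: without it the sums were 120, 65.1 and 79.3 CPM in Cre libraries, against 77.1, 67.4 and 75.7 CPM in control libraries. Monocyte markers summed to 20.3 to 23.5 CPM in Cre and 19.5 to 25.2 CPM in control libraries.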

How the data were processed

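The labels describe 1 library per mouse, polyA-captured mRNA from RNeasy Plus Micro extracts. The authors deposited raw counts as whole numbers, 1 row per gene. Per the submitters' processing notes, the tools include STAR 2.6.1, featureCounts 1.6.4 and the build GRCm38. The sources used here give neither annotation release nor strand setting. Tap1 shares exon bases with Psmb9, Tapbp with Zbtb22, and Tap2, Psmb8, Tapbp and Nlrc5 with genes on the opposite strand. In those shared stretches the reads of overlapping genes cannot be told apart. Of 46078 rows, 45229 identifiers were found in GENCODE M21 (used for positions and exon lengths). All other values were computed here from the counts: edgeR 4.0.16 in R 4.3.3 with filterByExpr (minimum count 10, 15147 genes left), TMM factors (0.986 to 1.015), glmQLFit and glmQLFTest, two-sided, Benjamini-Hochberg over all tested genes, no block; log CPM for correlations used a prior count of 2 and genes averaging 1 CPM or more. The biological coefficient of variation was 14.4%. The code was tested on simulated counts with known changes, where edgeR made 16 false calls of 189 and DESeq2 51 of 236. Those counts were drawn with the dispersions that edgeR had estimated, so the shares of false calls need not hold in the real libraries. DESeq2 calls here are to be read with caution. DESeq2 1.42.0 and limma 3.58.1 (voom) were alternatives, with other scalings, filters, thresholds and left-out libraries. Log2 fold changes are given with their SE. Totals were 53824475 to 65443314 counts, where 3 counts equal 0.0465 to 0.0557 CPM; intervals and floors cover counting error only. Within groups every pair of libraries differed beyond sampling noise (chi-square per degree of freedom at least 21.7). Promoter windows are RefSeq's (GRCm38.p6). Members, lists and tests were chosen with earlier results of these data known. Named were the members, Car4, from each other list up to 4 genes of smallest p and 2 of highest mean, and the 5 genes most correlated with H2-M2 and with H2-K1; C2, Btnl4, H2-Ab1, H2-Eb1, Igf2r, C1qa, Irf1, Olfr99, Olfr111 and the 5 genes of larger fold change than H2-M2 were named after their values were seen, as were the chaperones without overlap, Siglecf, Cd163, Folr2, Lyve1 and Cx3cr1; marker sums without their leading genes, and the alternatives for Car4, were added after the data had been seen. Some genes are not reported here. Figures were drawn with matplotlib 3.10.9.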

Additional observations from a re-analysis of the deposited data

How the results depend on the processing

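Over the alternatives tried, H2-M2 kept its direction, with a log2 fold change of 6.16 to 7.53. A filter of 5 CPM in 3 libraries removed it. Members past the threshold numbered 1 (H2-M2) under DESeq2, 1 with no filter and 0 to 1 on leaving out each library, where the 1 came without Cre library 1; since H2-M2 was chosen on this contrast, these calls describe the tools and support nothing. The median of the members ran from 0.055 to 0.188 on leaving out each library, the highest without control library 1. H2-M3 turned to -0.002 under library size only and ran from -0.140 to 0.200 on leaving out libraries, Tap2 from -0.067 to 0.008 and Psmb8 from -0.071 to 0.057, so none of the 3 has a stable direction. The difference of H2-M2 over the classical chains ran from 5.26 to 7.49 over the alternatives.

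Counts over all genes depended on the tool. Genes called higher in Cre numbered 1 in edgeR, 345 in DESeq2, 340 with no filter and 1 to 249 on leaving out each library, the most without Cre library 1. Genes called lower numbered 1 in edgeR, 219 in DESeq2, 183 with no filter, 0 with robust dispersions and 0 to 52 on leaving out each library, the most without control library 3; Car4 was the gene called in edgeR and the call lost where 0 remained, with robust dispersions and without control library 2. With the replicate block 8 genes were called higher and 2 lower, and 0 members. Same-numbered libraries correlated at -0.00977, -0.156 and 0.0691 in their deviations from the group means, and differently numbered ones at -0.224 to 0.239. Deviations within a group sum to 0, so these correlations cannot decide whether same-numbered libraries were handled together. The cause of these changes was not tested.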
